A study of Rattus norvegicus with 10 samples.

Results

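Amino acid breakdown in the liver was followed through 9 enzyme genes: Tat, Gpt, Got1, Agxt, Sds, Hal, Gls2, Tdo2 and Hpd. Each was found by its gene name in the deposited isoform table, and its level is the sum over isoforms that match, lie within, share a splice junction with or overlap the annotated gene on its strand. These are 9 of 19993 genes with such isoforms, and all 9 were among the 10976 genes that passed a mean of at least 1 FPKM (fragments counted relative to transcript length and sequencing depth) and entered the test. Their 27 summed isoforms comprised 11 that match an annotated transcript and 16 assembled from the reads.

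The livers came from wild type Wistar rats. All animals, controls included, had eaten a diet with 60% of calories as fat for 4 weeks and were then made diabetic with streptozotocin (35 mg/kg, injected after a 16 h fast), which destroys the insulin-secreting cells of the pancreas. They entered the study if fasting glucose was above 16.7 mmol/L 3 days later. In 5 samples the rats had undergone sleeve gastrectomy (SG), which removes most of the stomach, and livers are labelled as taken at 3 months; in 5 samples they had a sham operation (SHAM), for which the labels give no time. An effect of sampling time and one of surgery cannot be told apart. The labels do not say whether each sample is a rat of its own, nor at what hour or in which feeding state livers were taken, and p-values measure only the spread between these samples.

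The liver is the main site where amino acids are stripped of their nitrogen. Aminotransferases move the amino group to a keto acid, lyases and glutaminase release ammonia for the urea cycle, and the remaining carbon skeletons feed glucose and ketone body synthesis. Several of these genes are textbook targets of glucocorticoids, glucagon and fasting: Tat and Tdo2 were among the first mammalian genes in which hormonal induction was studied, and Sds is strongly induced by protein feeding, glucagon and diabetes. Hal, Sds and Gls2 are typical of hepatocytes near the portal vein.

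Promoter sequences from RefSeq (build GRCr8, a later build than the Rnor_6.0 coordinates of the expression table) were held for 6 of the 9 genes, as 300 bases from 250 before to 50 after each start. Those of Tat, Got1, Gls2 and Tdo2 are shown because these genes had their highest level in the same library, SHAM 2, described below. Capitals mark matches, on either strand, to the CCAAT box (CCAAT), the TATA box (TATAAA) or the core of the cyclic AMP response element (TGACG). The D-box (TTATGTAA), the E-box (CACGTG) and the glucocorticoid receptor core motif (AGAACA) were searched as well, and no 2 matches overlap.
Tat, chr19:54856354-54856653, plus strand: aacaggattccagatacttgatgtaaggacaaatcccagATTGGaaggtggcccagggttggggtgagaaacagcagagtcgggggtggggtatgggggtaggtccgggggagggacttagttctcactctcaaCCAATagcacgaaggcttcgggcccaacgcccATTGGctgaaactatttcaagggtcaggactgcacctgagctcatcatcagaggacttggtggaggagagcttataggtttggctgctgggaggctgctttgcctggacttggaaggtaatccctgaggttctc
Got1, chr1:252329822-252330121, minus strand: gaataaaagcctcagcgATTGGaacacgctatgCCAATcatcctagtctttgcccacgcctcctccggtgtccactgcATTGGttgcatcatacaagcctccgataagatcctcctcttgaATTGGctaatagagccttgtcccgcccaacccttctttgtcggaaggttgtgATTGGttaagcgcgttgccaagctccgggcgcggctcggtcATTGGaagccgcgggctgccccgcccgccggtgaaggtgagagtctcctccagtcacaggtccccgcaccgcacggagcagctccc
Gls2, chr7:1201629-1201928, plus strand: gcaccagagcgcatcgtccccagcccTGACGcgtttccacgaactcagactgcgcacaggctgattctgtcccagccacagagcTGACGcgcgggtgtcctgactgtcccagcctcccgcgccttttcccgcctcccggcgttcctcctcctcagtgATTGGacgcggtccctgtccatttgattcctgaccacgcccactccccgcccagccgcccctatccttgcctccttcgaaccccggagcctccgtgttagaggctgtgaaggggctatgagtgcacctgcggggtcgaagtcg
Tdo2, chr2:169585537-169585836, minus strand: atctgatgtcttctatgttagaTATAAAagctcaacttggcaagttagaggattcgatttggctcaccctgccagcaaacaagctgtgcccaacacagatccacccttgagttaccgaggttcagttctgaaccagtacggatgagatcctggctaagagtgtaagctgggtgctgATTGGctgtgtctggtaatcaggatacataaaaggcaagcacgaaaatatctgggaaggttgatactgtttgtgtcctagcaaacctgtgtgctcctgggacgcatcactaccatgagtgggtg
The Got1 window held 6 CCAAT boxes, which 0.0418% of all 33469 promoter windows reach, and the Tat window 3, as 3.02% of windows do at least. Gls2 and Tdo2 each had 1 CCAAT box, present at least once in 37.5% of windows. Gls2 also had 2 cyclic AMP cores (4.96% of windows have at least 2), and Tdo2 a TATA box, present in 14.2%. None of these 4 windows had a D-box, an E-box or a glucocorticoid receptor core motif, which occur in 0.893%, 6.42% and 20.7% of all windows. A second start entered for Gls2 had no match to any of the 6 motifs. These are letter matches only.

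Levels per length set Hpd far above the other genes, with a mean of 798 FPKM over the 10 libraries, followed by Tdo2 (332), Tat (304), Gpt (116), Hal (88.9), Gls2 (67.3), Got1 (34.4), Agxt (28.5) and Sds (15.6). Hpd was above Tdo2, Tat above Gpt, and Gls2 above Got1 in 10 of 10 libraries. The neighbours Tdo2 and Tat (Tdo2 higher in 7 of 10), Gpt and Hal (8 of 10), Hal and Gls2 (8 of 10) and Got1 and Agxt (6 of 10) took either order in different libraries. Agxt was above Sds in 9 of 10, the exception being SHAM 2. Total estimated counts were 77617460 to 92110190 per SG library and 65824088 to 85520959 per SHAM library. Hepatocyte markers were abundant in every library (albumin at 15517 FPKM or more). Summed red blood cell markers varied from 131 FPKM to 1198 in SHAM 4, B and plasma cell markers from 6.05 in SHAM 2 to 66.6 in SG 2, and endothelial markers from 47.8 to 88.6. Bile duct, T cell, neutrophil, pancreatic and fat cell lists each summed to at most 8.06 FPKM, with the neutrophil gene Mpo at 0 in all libraries.

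Between sleeve gastrectomy and sham livers none of the 9 genes passed edgeR's quasi-likelihood test (adjusted p = 0.993, or 0.997 for Tdo2, n = 5 and 5), and FPKM of the groups overlapped for all 9. The share of all 10976 genes called at an adjusted p of 0.05 was 0.0%, 4.56% had an unadjusted p under 0.05, and 1.34% had groups that did not overlap. None of the 9 genes had an unadjusted p under 0.05, and none was among the 17 genes (0.155%) that DESeq2 called, though DESeq2 gave Sds no adjusted p. The median log2 fold change (SG minus SHAM) of the 9 was -0.28, against -0.0086 over all tested genes. It was negative for 7 of 9, where 52.2% of all genes were negative. Without the library SHAM 2 the median was 0.0057 and 4 of 9 were negative, with 50.5% negative over all genes. Without SG 2 it was -0.15 and 6 of 9 were negative, with 53.2% negative over all genes.

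**Figure D1:**
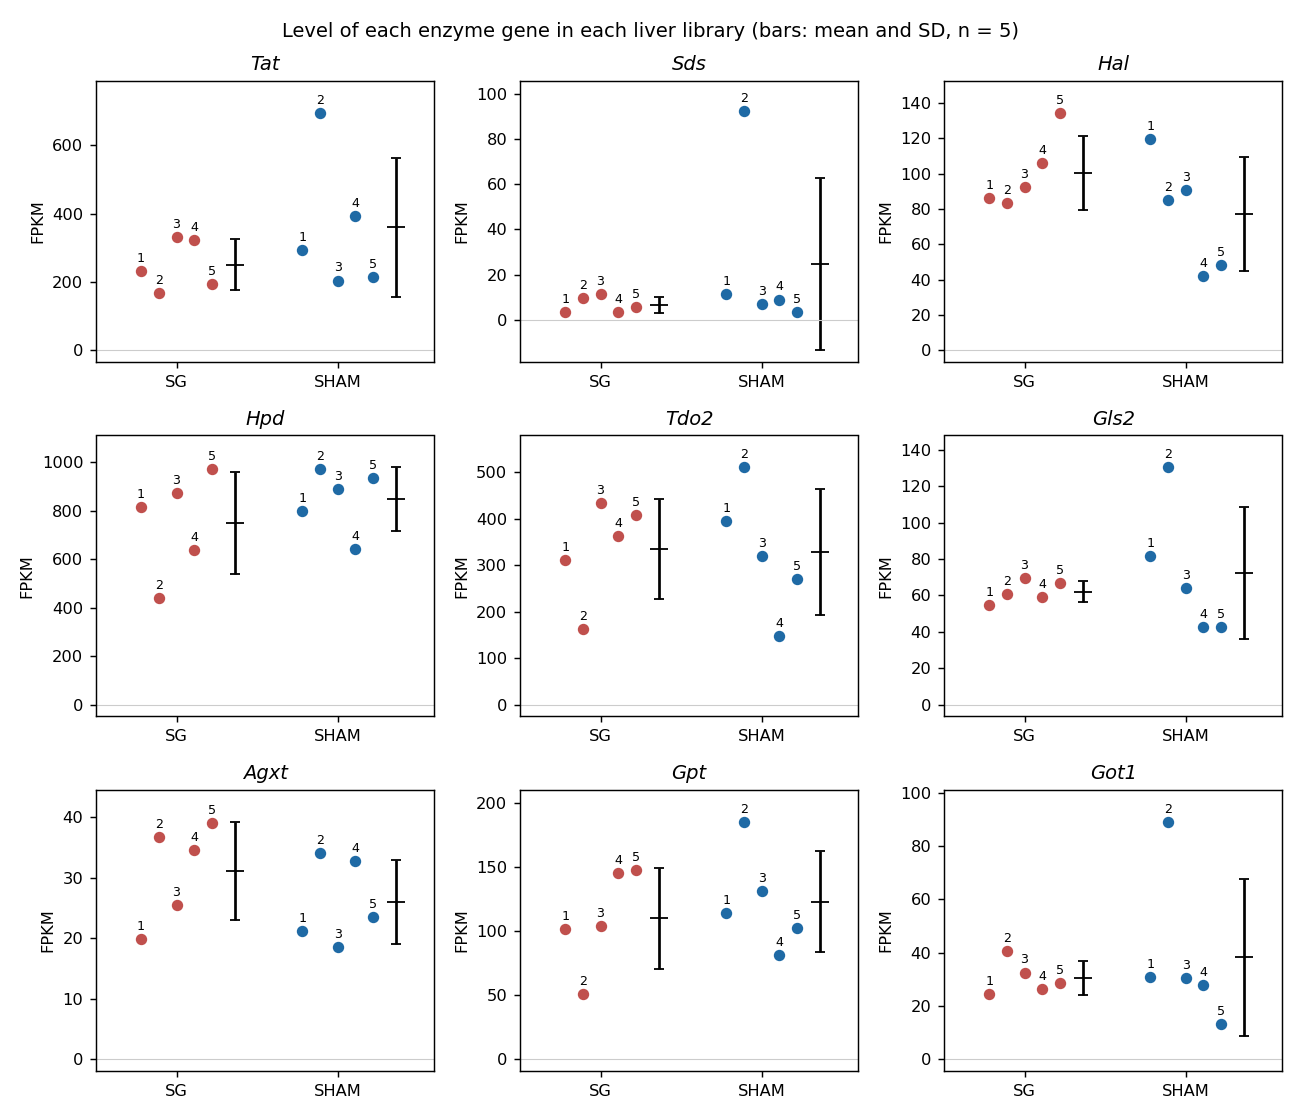
FPKM of each enzyme gene (vertical axis, linear, a scale per gene) in the 5 SG (red) and 5 SHAM (blue) libraries, numbered by replicate, with the mean and SD of each group as black bars. SHAM 2 is the highest point for Tat, Sds, Tdo2, Gls2, Gpt and Got1, and the groups overlap in all 9 panels.

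Aminotransferases start the breakdown of most amino acids. Tat, tyrosine aminotransferase (chr19:41675355-41686229, minus strand, Rnor_6.0), commits tyrosine to degradation. Its FPKM were 233, 167, 331, 323 and 193 in SG 1 to SG 5 and 292, 695, 204, 393 and 213 in SHAM 1 to SHAM 5. SHAM 2 stood 1.77 times above the next library, SHAM 4. SHAM 4 was also above the SG range, and the other 3 SHAM values lay within it. Mean FPKM was 249 ± 74.8 for SG against 359 ± 202 for SHAM (SD, n = 5). In edgeR the log2 fold change was -0.56 with an SE of 0.32 and a 95% interval from -1.27 to 0.16 (unadjusted p = 0.113), and -0.24 without SHAM 2.

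Gpt (chr7:117757425-117761931, plus strand) encodes cytosolic alanine aminotransferase, the enzyme measured in blood as ALT, which turns alanine into pyruvate. Its FPKM were 102, 51.1, 104, 145 and 148 in SG and 114, 185, 131, 81.0 and 102 in SHAM. The highest library was SHAM 2 and the lowest SG 2. Between the groups the log2 fold change was -0.25 ± 0.28 (SE), with an interval from -0.88 to 0.38. It was -0.085 without SHAM 2 and -0.071 without SG 2. Gpt stood above its mitochondrial partner Gpt2 in 10 of 10 libraries, from 1.50 times in SG 2 to 4.22 times in SG 4.

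Got1 (chr1:263246248-263269762, minus strand) encodes cytosolic aspartate aminotransferase, part of the malate-aspartate shuttle and of gluconeogenesis from amino acids. Its FPKM were 24.3, 40.7, 32.5, 26.3 and 28.6 in SG and 30.7, 89.2, 30.3, 27.7 and 13.2 in SHAM. Only SHAM 2 was above the SG range and only SHAM 5 below it. Its log2 fold change was -0.54 ± 0.53 (SE), with an interval from -1.71 to 0.62, and turned to 0.14 without SHAM 2. In contrast to Gpt, Got1 was below its mitochondrial partner Got2 in 10 of 10 libraries, at 0.102 times in SHAM 5 to 0.665 times in SHAM 2. Got2 itself varied little, from 106 to 155 FPKM.

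Agxt (chr9:100281339-100291291, plus strand), alanine-glyoxylate aminotransferase, detoxifies glyoxylate and also uses serine. Its FPKM were 19.8, 36.7, 25.4, 34.5 and 39.0 in SG and 21.2, 34.1, 18.5, 32.7 and 23.4 in SHAM. Values spread over a 2.11-fold range in all, the narrowest of the 9 genes, and high and low libraries occurred in both groups. SG minus SHAM was 0.17 ± 0.22 (log2, SE), with an interval from -0.32 to 0.65.

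Ammonia-releasing enzymes included the gene with the widest range of the 9. Sds, serine dehydratase (chr12:41620393-41627741, minus strand), turns serine into pyruvate and ammonia. Its FPKM were 3.40, 9.46, 11.3, 3.28 and 5.58 in SG and 11.3, 92.7, 7.08, 8.96 and 3.41 in SHAM. SHAM 2 was 8.18 times above the next library, SG 3, while the other 9 libraries lay between 3.28 and 11.3 in both groups. In edgeR the groups differed by -1.86 on the log2 scale with an SE of 0.88, an interval from -3.82 to 0.10 and an unadjusted p of 0.0607. Without SHAM 2 it was -0.18 ± 0.50, with an interval from -1.31 to 0.94. The related gene Sdsl, a serine dehydratase-like enzyme, was between 1.42 and 3.79 FPKM, so that the ratio of Sds to Sdsl ran from 1.07 in SG 4 to 24.5 in SHAM 2.

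Hal (chr7:34325662-34356413, plus strand), histidine ammonia-lyase, takes the first step of histidine breakdown. Its FPKM were 86.2, 83.4, 92.6, 106 and 134 in SG and 120, 85.0, 90.9, 41.9 and 48.4 in SHAM. SHAM 4 and SHAM 5 lay below every other library, and SHAM 2 was within the SG range. Mean FPKM was 101 ± 20.9 for SG against 77.2 ± 32.2 for SHAM (SD, n = 5), and the log2 fold change was 0.24 ± 0.25 (SE), with an interval from -0.31 to 0.80. It was 0.13 without SG 5, 0.13 without SHAM 4, 0.12 without SHAM 5 and 0.45 without SHAM 1.

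Gls2 (chr7:2605719-2621852, plus strand), the liver glutaminase, splits glutamine into glutamate and ammonia next to the urea cycle. Its FPKM were 54.8, 60.6, 69.6, 59.0 and 66.8 in SG and 81.9, 130, 64.1, 42.8 and 42.9 in SHAM. The SG libraries lay close together (SD 5.96) and the SHAM libraries on both sides of them (SD 36.3). The groups differed by -0.29 ± 0.26 (log2, SE), with an interval from -0.87 to 0.30, and by 0.0057 without SHAM 2.

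Aromatic ring enzymes were the most abundant. Tdo2, tryptophan dioxygenase (chr2:180897011-180914940, minus strand), opens the ring of tryptophan and starts the kynurenine pathway. Its FPKM were 311, 162, 433, 362 and 408 in SG and 394, 510, 319, 147 and 270 in SHAM. SG 2 and SHAM 4 had less than the other 8 libraries. Its log2 fold change was -0.055 ± 0.32 (SE), with an interval from -0.77 to 0.66. It was positive without SHAM 2 (0.13) and without SG 2 (0.12). On FPKM it was 0.066 (limma on log2(FPKM + 0.5)), a fit in which the median over all tested genes was 0.080.

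Hpd (chr12:38827986-38839969, plus strand), hydroxyphenylpyruvate dioxygenase, acts right after Tat on the tyrosine route. Its FPKM were 817, 440, 872, 638 and 973 in SG and 799, 973, 889, 641 and 934 in SHAM. SG 2 was the lowest library, and SG 4 and SHAM 4 the next. SG minus SHAM was -0.28 ± 0.20 (log2, SE), with an interval from -0.73 to 0.17, and -0.15 without SG 2. An assembled transcript on the opposite strand of Hpd (chr12:38821306-38829910, 5 exons, 1064 nt) was not summed. It stood at 5.22 to 9.11 FPKM in SG and 4.62 to 9.47 in SHAM, and since the sources used here do not state that counting used strand, its reads cannot be told apart from those of Hpd where they overlap.

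**Figure D2:**
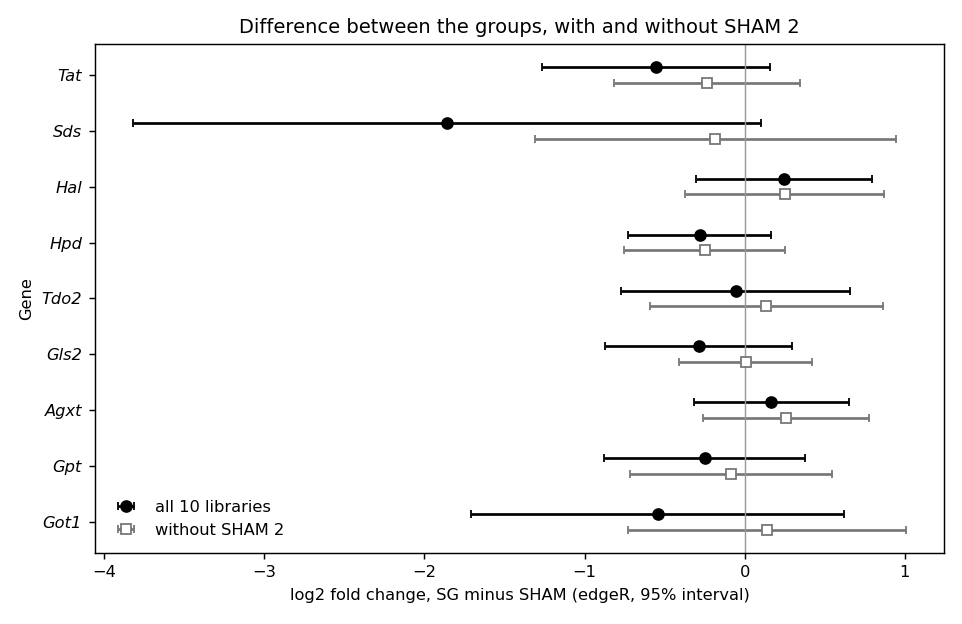
Log2 fold change (SG minus SHAM, horizontal axis) with its 95% interval in edgeR for each gene, over all 10 libraries (black circles) and without SHAM 2 (grey squares). All intervals span 0, and the value for Sds moves from -1.86 to -0.18 when SHAM 2 is left out.

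The 95% intervals, given here as a ratio of SG to SHAM, differed in width. For Hpd and Agxt the interval ran from 0.603 to 1.12 times and from 0.802 to 1.57 times, and for Gls2 from 0.547 to 1.23 times. On the log2 scale Sds had the widest, corresponding to 0.0710 to 1.07 times, and Got1 the next, 0.306 to 1.54 times. A 2-fold difference either way lies outside the interval for Hal, Hpd, Tdo2, Gls2, Agxt and Gpt, whereas for Tat, Sds and Got1 the interval holds a 2-fold lower but not a 2-fold higher level in SG. Within groups, the SD of log2(FPKM + 0.5) was 0.37 for Hpd and 1.33 for Sds. These stand at the 74.0th and 98.6th percentile of all tested genes, and the other 7 members lay in between.

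Single libraries stood out for several genes at once. SHAM 2 was the highest of the 10 libraries for 6 of 9 genes, where 13.3% of all tested genes had their highest value there, and the highest SHAM library for 8 of 9 (30.4% of all genes). Relative to the median of the other 9 libraries, it stood at 13.1 times for Sds, 3.12 for Got1, 2.99 for Tat, 2.15 for Gls2, 1.79 for Gpt and 1.60 for Tdo2. The values were 1.34 times for Agxt, 1.19 for Hpd and 0.935 for Hal. SG 2 was the lowest library for Tat, Hpd and Gpt (9.02% of all genes) and had 0.447 times the median of the others for Tdo2, but 1.45 times for Agxt and 1.43 times for Got1. On FPKM, SHAM 4 was the lowest for Hal, Tdo2 and Gls2 (17.3% of all genes), at 0.460, 0.407 and 0.667 times. For Gls2 it was close to SHAM 5 (42.8 and 42.9 FPKM). On counts scaled for sequencing depth, SHAM 4 was the lowest for none of these genes, by small margins. There SHAM 5 was the lowest for Hal (170 against 174 in SHAM 4) and Gls2 (158 against 159). SG 2 was the lowest for Tdo2 (386 against 387 in SHAM 4). SHAM 4 is also the library with the highest red blood cell markers, whose part in its low values was not tested.

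**Figure D3:**
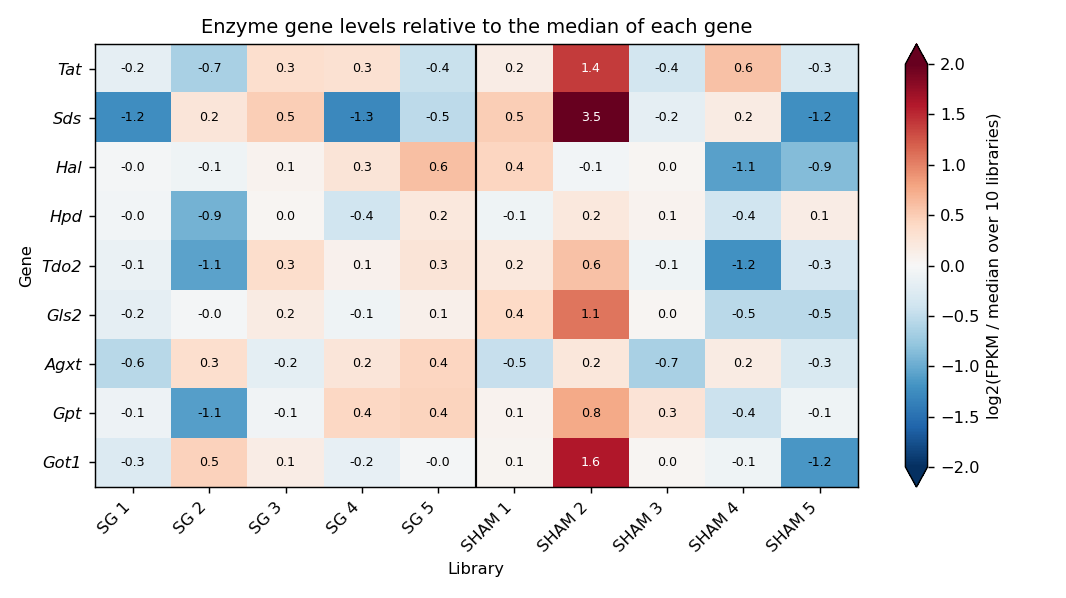
Log2 ratio of FPKM to the gene's median over the 10 libraries (colour and printed value, capped in colour at 2 either way) for the 9 genes (rows) in each library (columns; the line separates SG from SHAM). SHAM 2 is the highest library for Tat, Sds, Tdo2, Gls2, Gpt and Got1. It is slightly above the median for Agxt (0.23) and Hpd (0.20), and slightly below it for Hal (-0.06). Tdo2, Hpd and Gpt are low in both SG 2 and SHAM 4, and Hal and Gls2 are low in SHAM 4 but near the median in SG 2.

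Measures that moved with these libraries were read beside them. Dbp, an output gene of the circadian clock, reached 83.6 FPKM in SHAM 2 and 81.1 in SG 3, against 2.34 to 22.7 for the remaining 8 libraries. SG 3 was the highest SG library for Tat, Sds, Tdo2 and Gls2, and SHAM 2 the highest SHAM library for the same 4 genes, a pairing that 6.69% of all tested genes share. Klf15, a glucocorticoid-induced factor that acts on amino acid breakdown genes, was at 43.6 FPKM in SHAM 2 and 11.6 to 24.5 elsewhere. The gluconeogenic enzyme gene Pck1 was at 1566 FPKM in SHAM 2 and 587 to 1136 elsewhere, the glucocorticoid target Fkbp5 at 7.95 and 1.39 to 4.64, and the arginine transporter gene Slc7a2 at 147 and 46.4 to 96.3. In the glucocorticoid and cyclic AMP list, Per1 (13.9 FPKM) and Zbtb16 (44.4) were also highest in SHAM 2. The next libraries were SG 3 for Per1 (9.47) and SG 4 for Zbtb16 (39.8). Apart from Per1, Zbtb16, Fkbp5 and Pck1, no gene of that list was highest in SHAM 2. Sgk1 was at its lowest in SHAM 2 (5.13 FPKM), G6pc, the last enzyme of gluconeogenesis, was at 11.1 in a range of 7.47 to 57.6, and Tsc22d3 (7.66) and Mt2A (319) were within the range of the other libraries. The part of hour, feeding or hormones in these values was not tested.

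Markers of position in the liver lobule and of other cells were read in the same way. In SG 2 the pericentral genes Glul (106 FPKM) and Cyp2e1 (895) were at their lowest of all libraries, against 161 to 377 and 2101 to 3542 elsewhere, and the summed level of the 8 pericentral markers was 1509.7 FPKM, against 2765 to 4421 in the other 9. Most of that sum is Cyp2e1. The list's Cyp1a2 was high in SG 2 (474 FPKM, range 222 to 477) and Axin2 was within the range of the others. Summed periportal markers, 7 genes that include Hal, Sds and Gls2, were at 4014 FPKM in SHAM 2 and 1515 to 2560 elsewhere. Of the SHAM 2 sum, 1494 FPKM were Ass1 and 1566 Pck1, while Hal was within the range of the other libraries. The summed 8 macrophage markers reached 442 FPKM in SG 2 against 170.0 to 387 elsewhere, and the 8 stellate cell and fibroblast markers 91.6 against 23.8 to 50.8, with no marker of either list at 0 in all libraries. Such a sum follows its most abundant genes. The log2 fold change (SG minus SHAM) of the 8 macrophage genes ran from -0.59 (Cd68) to 1.05 (Lyz2). It was negative for 5 of 8, and for 7 without SG 2. Of 7 tested stellate cell and fibroblast genes 6 were positive, and 4 without SG 2. The part of these markers in the low values of Hpd, Gpt and Tat in SG 2 was not tested. In whole liver, fewer cells of a type and less RNA per cell cannot be told apart.

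Isoforms of the same gene often pointed to the same library. All 6 isoforms of Sds, 6 of 7 of Got1, and both of Tat, Gls2 and Gpt were highest in SHAM 2. Together, 20 of the 27 member isoforms had their highest FPKM there, against 12.4% of isoforms of tested genes. Reads that fit several isoforms are split by estimate, and the gene levels are sums of these isoforms. The isoform count therefore adds no separate support to the gene levels. The annotated Sds transcript of 9 exons had 24.9 FPKM in SHAM 2 against 0.854 to 5.02 elsewhere, and an assembled Sds isoform of 7 exons and 3319 nt at 28.9 and 0.256 to 4.52.

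Much of the signal of some genes lay on assembled isoforms longer than the annotated transcript but with fewer exons. An example is the Got1 isoform of 13361 nt and 2 exons, beside an annotated transcript of 1998 nt and 9 exons. Sds had 4 such isoforms, Got1 5, and Tat, Hal and Tdo2 1 each. They held 67.3% (SHAM 1) to 93.9% (SG 2) of the estimated counts of Sds, and 42.5% (SHAM 3) to 83.1% (SHAM 4) of those of Got1. For Got1 the share was 82.9% in SG 2 and 79.5% in SHAM 2, above the remaining 7 libraries with SHAM 4. For Tat it was 22.1% in SG 3 to 47.8% in SG 5, and for Hal 8.18% in SG 3 to 36.4% in SHAM 4. The Tdo2 isoform is only 1.07 times as long as the annotated transcript and held 40.8% to 63.6%. Over all tested genes with such isoforms the median share moved only from 50.8% to 55.7% between libraries.

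**Figure D4:**
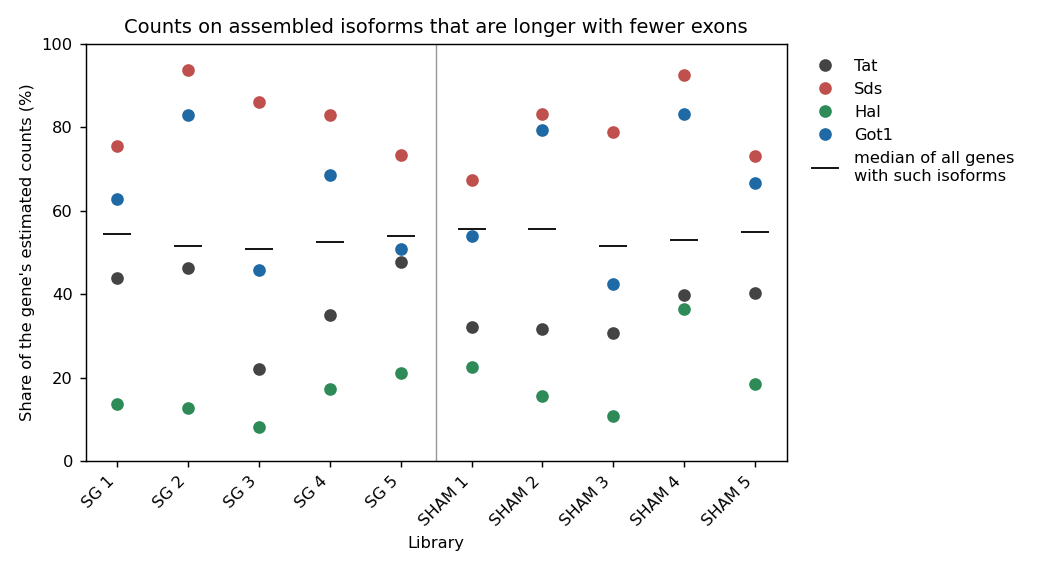
Share of a gene's estimated counts (vertical axis, %) on assembled isoforms that are longer than its longest annotated transcript and have fewer exons, in each library. Got1 is near 80% in SG 2, SHAM 2 and SHAM 4, while the black dashes, the median over all tested genes with such isoforms, stay between 50.8% and 55.7%.

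Fold changes also depended on the isoforms summed. With only isoforms that match the annotation, the log2 fold change of Got1 was -0.25 in edgeR (-0.54 with all summed isoforms) and 0.013 in limma on log2(FPKM + 0.5) (-0.067 with all). Tdo2 was at 0.20 in edgeR and 0.29 in limma, against -0.055 and 0.066 with all. The scales differ: the median over all tested genes was 0.081 in limma on matching isoforms and 0.080 with all. In edgeR it was -0.011 and -0.0086. Sds moved by as much as Got1 in edgeR, from -1.86 to -2.16, and Tat from -0.56 to -0.62. The share of FPKM on isoforms that do not match the annotation passed no test between SG and SHAM for the 8 genes that have such isoforms (exact permutation test over 252 splits, two-sided, adjusted p from 0.98 to 1.0 over 5269 genes). None of those genes was called (0.0%), and 4.52% had an unadjusted p under 0.05. For Tdo2 this share was 46.4% ± 5.13 in SG and 53.8% ± 6.20 in SHAM (SD, n = 5, exact permutation p = 0.0794), and for Gls2 it was 82.1% ± 10.1 and 84.6% ± 6.38.

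Genes with the most similar profiles over the 10 libraries were ranked by Pearson correlation of log2(FPKM + 0.5) among 10967 other tested genes, as a description. Klf15 came first for Tat (r = 0.90, Spearman's rho = 0.79, and r = 0.76 without SHAM 2), and Zfp787 was among the first 3 (0.90, 0.90 and 0.87). For Sds it was Tent4b (0.91, rho = 0.54), whose r without SHAM 2 was 0.59. The methionine adenosyltransferase gene Mat1a led for Gls2 (0.96, rho = 0.92), with the citrate and succinate transporter gene Slc13a2 next (0.95). The arginase gene Arg1, the last step of the urea cycle, was among the first 3 for Tdo2 (0.93, rho = 0.95), behind Smarcd2 and Sulf2 (0.95 each). The succinate dehydrogenase gene Sdhb led for Gpt (0.94, rho = 0.95), followed by the homocysteine pathway gene Ahcy (0.91). Leading genes for the others were Uck1 for Hal (0.95), AC112350 for Hpd (0.95), Cadm4 for Agxt (0.96) and Men1 for Got1 (0.92).

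Other genes were read from 7 lists around amino acid breakdown with 93 further names, 85 of them tested. The lists also hold genes that are not breakdown enzymes, among them Glul, Bckdk and Aadac. No gene passed in either direction (edgeR adjusted p = 0.993 or above). The log2 fold change was negative for 62 of 85 and positive for 23, with a median of -0.11 (-0.0086 over all genes, 52.2% negative). Without SHAM 2, 47 of 85 were negative (median -0.038, 50.5% negative over all genes), and without SG 2, 55 (median -0.045, 53.2% over all genes). At an unadjusted p under 0.05 there were 3 of 85, all negative, where 4.56% of all tested genes had such a p: Ivd, which oxidises the leucine product isovaleryl-CoA, Ppm1k, the phosphatase that activates branched-chain keto acid dehydrogenase, and Mif.

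Branched-chain genes were negative in 15 of 18 (median -0.13), and in 13 without SHAM 2 (median -0.083). Ivd had 45.7, 40.4, 41.6, 55.1 and 48.7 FPKM in SG and 57.6, 72.3, 49.8, 56.8 and 52.6 in SHAM, and a log2 fold change of -0.41 ± 0.12 (SE, edgeR unadjusted p = 0.00606). Its groups overlapped through SG 4. Ppm1k stood at -0.57 ± 0.24 and Hibch, of valine breakdown, at -0.31 ± 0.21. Sulfur amino acid genes were negative in 10 of 11 (median -0.19), and in 7 without SHAM 2 (median -0.14), with Bhmt2 at -0.26 ± 0.18, Cbs at -0.20 ± 0.14 and Ethe1 at -0.32 ± 0.35. In the aromatic list 12 of 16 were negative (median -0.096), and 9 without SHAM 2 (median -0.032). Mif, a cytokine that can tautomerise phenylpyruvate, stood at -0.38 ± 0.16 and the arylacetamide deacetylase gene Aadac at 0.39 ± 0.18.

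Glutamine, glutamate, proline and aspartate genes were negative in 11 of 13 (median -0.10), and in 8 without SHAM 2 (median -0.045), with the ornithine aminotransferase gene Oat at -0.47 ± 0.24, the GABA transaminase gene Abat at -0.30 ± 0.15 and Got2 at -0.19 ± 0.13. Histidine and folate-linked genes were negative in 4 of 6 (median -0.064), and in 2 of 6 without SHAM 2, where the median turned to 0.062, with Aldh1l1 at -0.58 ± 0.29, Amdhd1, which acts downstream of Hal, at -0.56 ± 0.45 and Uroc1, the step after Hal, at -0.11 ± 0.22. Serine, glycine and threonine genes were negative in 7 of 16 (median 0.070), and in 5 without SHAM 2 (median 0.098), with Shmt2 at -0.26 ± 0.17, Sardh at -0.34 ± 0.24 and Dld at 0.16 ± 0.11. Of 5 lysine genes 3 were negative (median -0.043, and -0.0037 without SHAM 2), with Hykk at 0.72 ± 0.37, Aldh7a1 at 0.30 ± 0.17 and Gcdh at -0.21 ± 0.19.

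**Figure D5:**
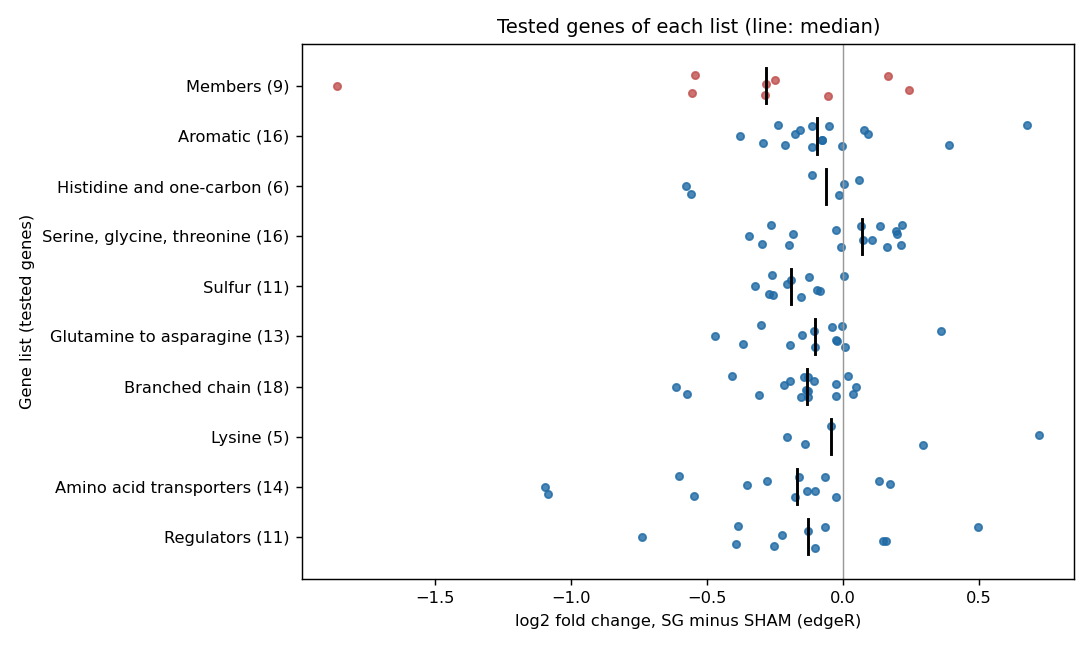
Log2 fold change (SG minus SHAM, horizontal axis, edgeR) of every tested gene (points) of the 9 enzyme genes and of each further list, with the list's median as a black line and the number of tested genes in brackets. Medians lie between -0.28 for the 9 enzyme genes and 0.070 for serine, glycine and threonine genes.

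Amino acid transporters, a list of carriers in the outer membrane of the cell and in mitochondria, were negative in 12 of 14 (median -0.17, and 10 of 14 without SHAM 2), and none passed. The glutamate transporter gene Slc1a2, also a pericentral marker, stood at -1.10 ± 0.45 with 5.67 to 29.8 FPKM in SG and 14.3 to 38.4 in SHAM, Slc7a5 at -1.08 ± 0.60 and the neutral amino acid transporter gene Slc38a2 at -0.55 ± 0.31. Slc7a5 averaged 0.723 FPKM in SG and 1.51 in SHAM, near the level at which genes entered the test, and the SHAM mean rests on 4.25 in SHAM 4 (0.517 to 1.49 in the other SHAM libraries). Among 11 tested regulators of these enzymes 8 were negative (median -0.13), and 5 without SHAM 2 (median 0.0024). Cebpb, a transcription factor of the hormone-induced liver, had 15.7, 14.0, 8.07, 16.0 and 10.7 FPKM in SG and 13.3, 26.9, 26.3, 21.4 and 13.1 in SHAM, with a log2 fold change of -0.74 ± 0.27 (SE, edgeR unadjusted p = 0.0198, adjusted p = 0.993). SHAM 2, SHAM 3 and SHAM 4 were above every SG library, and SHAM 1 and SHAM 5 within the SG range. Cebpa stood at -0.39 ± 0.24 and Atf4 at -0.22 ± 0.15.

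Of 13 glucocorticoid and cyclic AMP response genes 8 were negative (median -0.13, and -0.066 without SHAM 2), and none passed. The phosphodiesterase gene Pde4d, which lowers cyclic AMP, stood at 0.36 ± 0.13 (SE, edgeR unadjusted p = 0.022), Dusp1 at 0.73 ± 0.45 and Sgk1 at -0.30 ± 0.26. Of 12 clock genes 8 were negative (median -0.18), and 4 without SHAM 2 (median 0.074). Clock stood at 0.30 ± 0.34, Nr1d2 at -0.31 ± 0.38 and Tef at -0.26.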

How the data were processed

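Total liver RNA of 10 samples was depleted of ribosomal RNA and sequenced from both ends (insert about 300 bp), per the labels' protocols. Tools listed, without their roles, by the submitters' processing notes are StringTie 1.3.4 and HISAT2 2.0.4, besides FastQC 0.10.1 and cutadapt 1.9, with the build Rnor_6.0. The authors deposited FPKM and estimated counts of 51430 isoforms in each library; the counts are per isoform, so reads that fit several isoforms are split by estimate, and were rounded before testing. Values were summed per gene name, leaving out, by a choice made after the table was seen, 233 Rfam family names that stand for copies at many loci. Tests used edgeR 4.0.16 with TMM scaling (R 4.3.3, quasi-likelihood, two-sided, Benjamini-Hochberg over all 10976 genes with a mean of at least 1 FPKM, threshold 0.05). Standard errors come from the F statistic. On simulated counts of these 10976 genes for SG against SHAM, 61% of genes changed 2-fold and 93% of those changed 4-fold were recovered, and 11 unchanged genes were called. The changed genes were drawn at random. The 9 enzyme genes stand at the 74.0th to 98.6th percentile of within-group SD, so these shares need not hold for them. Alternatives used limma 3.58.1, DESeq2 1.42.0, other isoform sums and fewer libraries. The 9 genes and the lists were chosen with earlier results of these data known. Genes named from a list are the 3 smallest p-values, apart from some results not reported here, and the profile genes come from the 3 highest correlations. Levels of Dbp, Klf15, Pck1, Fkbp5, Per1, Zbtb16, Slc7a2, Glul and Cyp2e1 were singled out from the fixed lists after they were seen. The labels give equally numbered SG and SHAM libraries nothing in common but the number.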

Additional observations from a re-analysis of the deposited data

Results flagged for a closer look

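Of 18 groups of 5 libraries (9 genes in SG and in SHAM), 2 held a library whose gap to its nearest neighbour took more of the group's range than Dixon's 95% limit of 0.71 allows. That limit flags about 1 group in 20 by chance if groups are independent and values normally distributed. The 9 genes were read in the same libraries on linear FPKM, so this rate need not hold here. Sds was at 92.7 FPKM in SHAM 2, with a gap of 0.911 of the SHAM range. Got1 was at 89.2 FPKM in SHAM 2, with a gap of 0.770 of the range. This Got1 flag applies to the sum over all its isoforms. Its annotated transcript alone read 22.5, 42.4, 23.4, 13.7 and 7.53 FPKM from SHAM 1 to SHAM 5. SHAM 2 remained the highest on that transcript, but its gap fell short of the 0.71 limit.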

How the results depend on the processing

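Over 22 alternatives, 5 of them and the recounts of lists added after the data were seen, none of the 9 genes passed (adjusted p from 0.803 to 1.0, with none given for Sds by DESeq2), and the direction held in all 22 for Tat, Sds, Hal, Hpd and Agxt. In edgeR, 1 of the 9 had an unadjusted p under 0.05 with only matching isoforms (437 of all 9024 genes) and without the longer isoforms with fewer exons (507 of 10650). The same held for 1 without SHAM 3 (456 of 10976) and 1 without SHAM 5 (640), and for 2 without both SG 2 and SHAM 5 (561). The number of genes called over the whole table was 0 in edgeR, 17 in DESeq2, 0 to 1 with a library left out and 1 without both SG 2 and SHAM 5. Tdo2 turned positive in 10 alternatives: limma on log2(FPKM + 0.5) or log2(FPKM + 0.1) (0.066 each), only matching isoforms (0.20), no longer isoforms with fewer exons (0.21), limma on matching isoforms (0.29), without both SG 2 and SHAM 2 (0.31), without both SG 2 and SHAM 5 (0.069), and with 1 library left out it ranged from -0.23 (SHAM 4) to 0.13 (SHAM 2). Gls2 turned to 0.0069 in limma on matching isoforms and 0.015 without both SG 2 and SHAM 2, and ranged from -0.42 to 0.0057 with 1 library left out. Gpt was 0.094 without both SG 2 and SHAM 2. Got1 was 0.013 in limma on matching isoforms, -0.067 in limma on all summed isoforms, -0.24 with the replicate block and -1.09 without both SG 2 and SHAM 5, and with 1 library left out it ranged from -0.86 (SG 2) to 0.14 (SHAM 2). The median of the 9 was 0.0069 in limma on matching isoforms, 0.015 without both SG 2 and SHAM 2, and -0.36 to 0.0057 with 1 library left out. In limma on log2(FPKM + 0.5) the median over all tested genes was 0.080, and 0.081 on matching isoforms. Small positive values in these limma fits therefore need not mark a change relative to other genes. The cause of these shifts between alternatives was not tested. With the replicate number as a replicate block edgeR called 0 genes, the median of the 9 was -0.24 and Sds stood at -1.05. The correlation of equally numbered libraries' deviations ran from -0.275 to 0.139. The labels name no pairing, and correlations of so few libraries cannot settle whether there was one. With 5 libraries a group, the precision for Sds and Got1 is limited by their spread between libraries.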
